A study of Homo sapiens with 6 samples.

Results

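The genes described here form the switch that lets a cell enter mitosis: CDC2 (the array's name for CDK1, the mitotic kinase), its cyclins CCNB1 and CCNB2, the inhibitory kinases WEE1 and PKMYT1, the activating phosphatases CDC25A, CDC25B and CDC25C, and the checkpoint kinases CHEK1 and CHEK2. They were chosen by name, as all probes that the array files assign to these 10 genes. The rule used no signal values, but the list was drawn up with earlier results of these data known. The 10 genes, of 30484 gene names on the array, had 13 probes, of 41000, and all 13 were among the 36469 probes kept for testing. PKMYT1, CDC25A and CCNB2 had a pair of probes each, and the other genes had 1.

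RH36 is a human cell line of embryonal rhabdomyosarcoma, a childhood tumour with features of skeletal muscle, and it lacks the PAX3/FOXO1 fusion. The cells were transfected with pre-miR-27a, a synthetic precursor of the microRNA miR-27a (3 arrays), or with a negative precursor named pre-control (3 arrays), and all 6 cultures were grown in medium with serum. According to the labels the precursors were used at 10 nM, and the pre-miR-27a cells were taken 48 h after transfection. The study's methods state another concentration and another time, and which of them applies to these arrays was not settled. Both groups come from a single cell line with a transient transfection, and these mRNA arrays give no measure of mature miR-27a. The labels call the replicates biological without saying how they were separated, so p-values cover the spread between these 6 samples. The comparison asks whether raising miR-27a changed the mRNA of the mitotic entry genes.

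CDC2 bound to a B cyclin is held inactive while WEE1 and PKMYT1 keep phosphate groups on its ATP-binding site. The CDC25 phosphatases remove them, and active CDC2 in turn promotes CDC25 and restrains WEE1, so entry into mitosis is abrupt. After DNA damage or stalled replication, CHEK1 and CHEK2 phosphorylate the CDC25 proteins and hold the switch off. Much of this control acts on the proteins, which were not measured here. The mRNAs of CDC2, CCNB1, CCNB2 and CDC25C are known to rise late in the cell cycle. Their level in a culture can therefore vary with the share of dividing cells as well as with the mRNA per cell.

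The microRNA that was raised is shown with its seed, bases 2 to 8, in capitals, because the seed is the stretch that pairs with target mRNAs. It lies at chr19:13836447-13836467 on the minus strand (GRCh38.p14, RefSeq).
hsa-miR-27a-3p: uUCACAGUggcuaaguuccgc

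Total RNA was labelled with Cy3 and hybridised to 1-colour Agilent arrays, each with 43376 spots for genes. Signals were well above background at 69.9% to 73.9% of spots on the pre-control arrays and at 74.1% to 78.0% on the pre-miR-27a arrays, and 0 spots were saturated. The median local background was 74.5 to 76 on the pre-control arrays and 52.5 to 53 on the pre-miR-27a arrays. The groups were hybridised on separate slides, the pre-control arrays on 1 and the pre-miR-27a arrays on the other, and in every result below the slide and the transfection cannot be told apart. The muscle lineage genes MYOD1, MYOG, DES and CDH15 were well above background on all 6 arrays, in accord with the label of the line, whereas MYF5 was on 0 arrays. Of the markers of other cell types, PTPRC (blood), EPCAM (epithelium) and PECAM1 (endothelium) were well above background on 0 arrays and CDH5 (endothelium) on 3. Signals are given as log2 of the background-subtracted intensity after quantile normalization, which gives all arrays the same distribution of values. A difference of 1 is a doubling, and signals of different probes are not comparable as amounts of RNA.

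None of the 13 probes passed an adjusted p of 0.05 in limma, where 7.83% of all probes passed. The count was also 0 of 13 at an unadjusted p under 0.05 (24.8% of all probes), and 0 with two-class unpaired SAM at a false discovery rate of 5% (3.64% of all probes) or of 1.9% (0.0247%). The study's methods name a two-class SAM and its results a paired one, which was not run here. The median difference over the 13 probes, pre-miR-27a minus pre-control, was −0.03, against −0.02 over all probes tested. By the brightest probe of each gene, 4 genes had a higher mean in pre-miR-27a cells (CDC2, CCNB1, CCNB2 and CHEK1) and 6 a lower one (WEE1, PKMYT1, CDC25A, CDC25B, CDC25C and CHEK2). Of all probes, 46.4% had a higher mean. Same-numbered arrays deviated together from their group means, so differences were also taken within the 3 same-numbered pairs. Of the 13 probes, 5 were higher in all 3 pairs (25.6% of all probes) and 5 were lower in all 3 (29.2%). When each array was scaled to its 75th percentile instead, 3 member probes were higher in all 3 pairs (22.5% of all probes) and 5 lower (36.2%), and the median of all probes moved to −0.09. With the replicate number as a block in the fit, 1 of the 13 probes was called, that of CDC2, against 14.9% of all probes (7.24% higher and 7.62% lower).

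**Figure D1:**
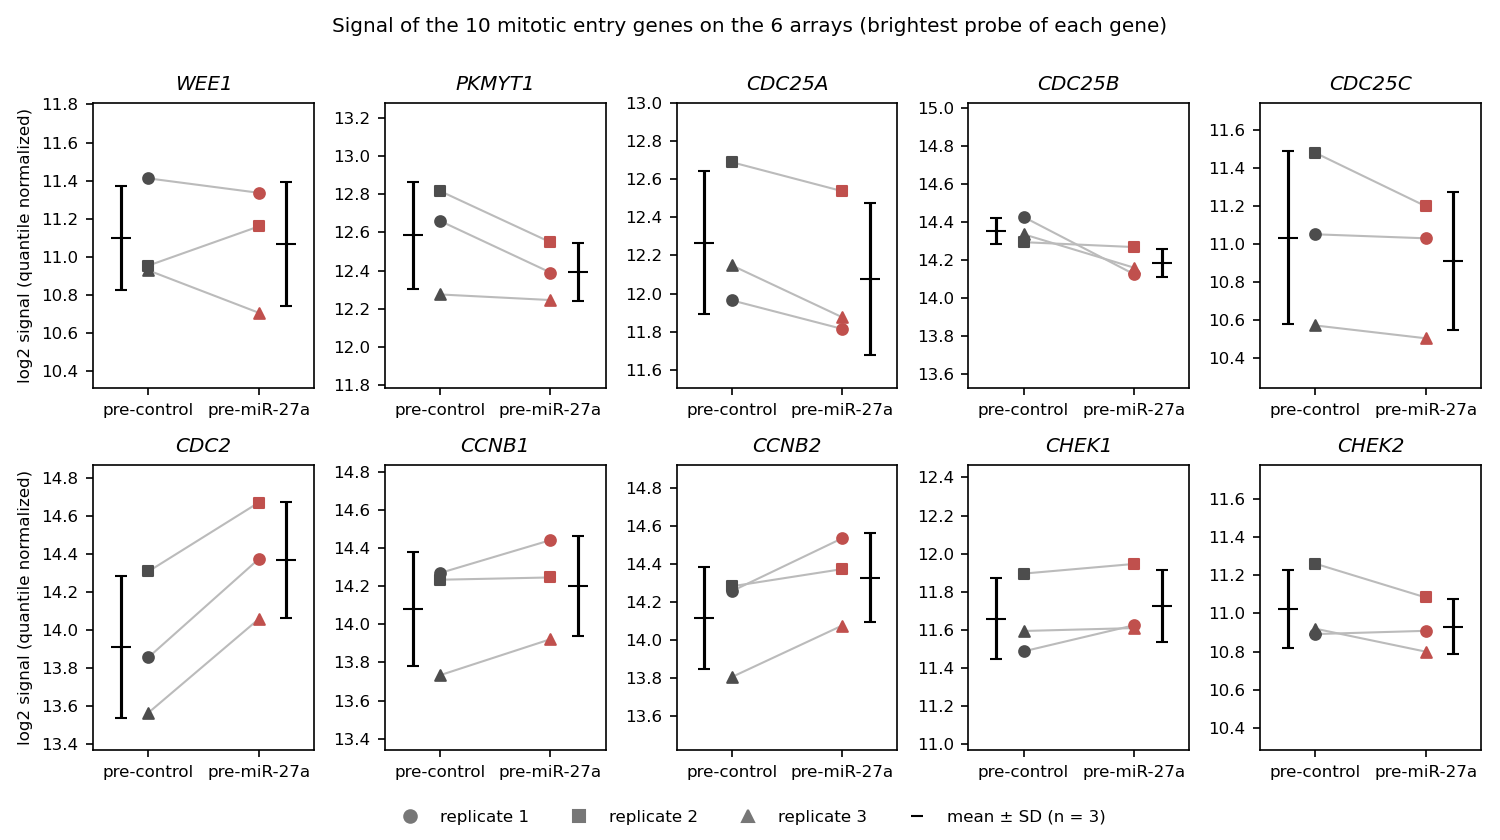
Log2 signal of the brightest probe of each gene (vertical axis, quantile normalized) in pre-control (grey) and pre-miR-27a (red) cells, with 1 symbol per replicate number, lines joining same-numbered arrays and bars for the mean ± SD of 3 arrays; all panels span the same number of log2 units, at different levels. The groups overlap for 9 of the 10 genes, CDC25B being the exception, while 32.5% of all probes did not overlap. All 3 lines rise for CDC2, CCNB1, CCNB2 and CHEK1 and fall for PKMYT1, CDC25A, CDC25B and CDC25C. Of all probes, 25.6% were higher in all 3 pairs and 29.2% lower.

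CDC2 encodes the kinase on which the other members act, directly or through one another. Its signals were 13.86, 14.31 and 13.57 in pre-control replicates 1, 2 and 3, and 14.37, 14.67 and 14.06 in the pre-miR-27a replicates. The groups overlapped, since pre-control replicate 2 lay above pre-miR-27a replicate 3, but each pre-miR-27a array was above the pre-control array of the same number. The mean was 13.91 ± 0.37 (SD, n = 3) against 14.37 ± 0.31, a difference of 0.46 with a standard error of 0.24 (95% interval −0.15 to 1.06), or 1.37-fold. In limma its adjusted p was 0.316. It was the widest difference of the 13 probes after quantile normalization, but under 75th percentile scaling it was 0.35 and that of the dimmer CDC25A probe 0.44. Within pairs 1, 2 and 3 the differences were 0.52, 0.36 and 0.49, which lie closer together than the replicates of either group do. With the replicate block the standard error of the same difference was 0.06, and the call passed (adjusted p = 0.0371 in limma). With the block and 75th percentile scaling together the difference was 0.35 and not called (adjusted p = 0.0707). With pair 1, 2 or 3 left out of the blocked fit the difference was 0.43, 0.50 and 0.44 (adjusted p 0.119 to 0.143 in limma), and in those fits 0 probes of the whole array were called. RNA came from whole cultures, so more cells late in the cycle and more CDC2 mRNA per cell cannot be told apart.

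The probe of CDC2 (NM_001786) was printed 10 times on each array, which gives a measure of technical spread that the other members lack. It maps to chr10:62222010-62223656 on the plus strand of hg18, a span of 1647 bases. Across its 10 spots the SD was 0.03 to 0.09 log2 units on the 6 arrays, against an SD of 0.37 between the pre-control arrays. In no pair did the spots overlap, the highest pre-control spot being 13.90, 14.37 and 13.61 and the lowest pre-miR-27a spot 14.17, 14.64 and 14.004 in pairs 1, 2 and 3. The spots repeat 1 hybridisation each and add no replicate to the comparison.

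**Figure D2:**
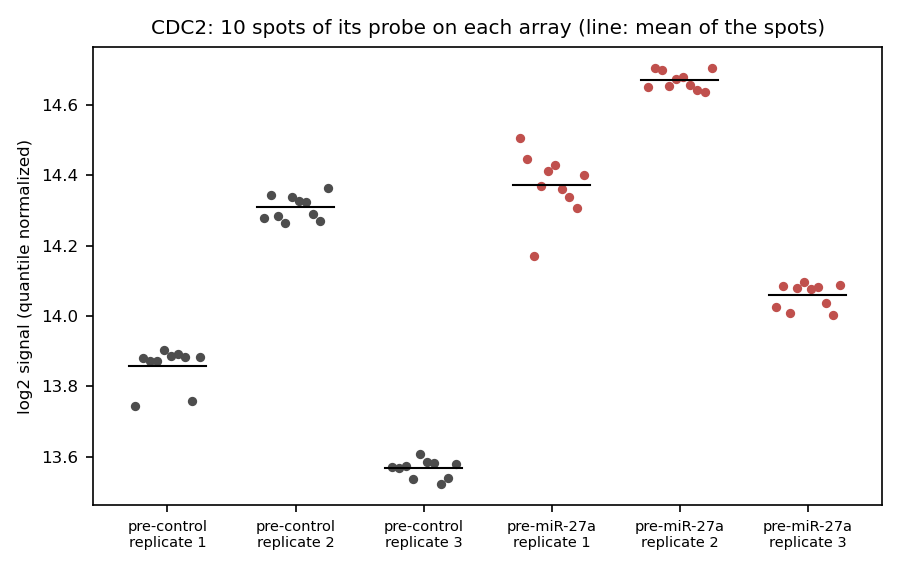
Log2 signal (quantile normalized) of each of the 10 spots of the CDC2 probe on the 6 arrays, with a line at the mean of the spots. Within each group the spots of different arrays do not overlap. The spots of pre-miR-27a replicate 1 spread the most, from 14.17 to 14.51.

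CCNB1 and CCNB2 encode the B cyclins that bind and activate CDC2. CCNB1 (NM_031966, chr5:68507119-68508879, plus strand, hg18) had signals of 14.27, 14.23 and 13.73 in pre-control and 14.44, 14.25 and 13.92 in pre-miR-27a cells. Replicate 3 was the lowest of both groups, and the groups overlapped. The difference was 0.12 with a standard error of 0.20 (95% interval −0.38 to 0.63, adjusted p = 0.762), and it was 0.17, 0.01 and 0.19 within the pairs. For CCNB2 (NM_004701, chr15:57204431-57204490, plus strand, hg18) the brighter probe gave 14.26, 14.28 and 13.81 against 14.54, 14.37 and 14.08. Its difference was 0.21 with a standard error of 0.18 (95% interval −0.24 to 0.67, adjusted p = 0.539), and 0.28, 0.09 and 0.27 within the pairs. Under 75th percentile scaling the difference between the groups was 0.011 for CCNB1 and 0.10 for CCNB2. Pair 2 became −0.15 for CCNB1 and −0.07 for CCNB2 under that scaling, while CDC2 stayed positive in all 3 pairs at 0.44, 0.20 and 0.40. The intervals allow for CCNB1 a rise of 0.63 or a fall of 0.38 on the log2 scale, and for CCNB2 a rise of 0.67.

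The other CCNB2 probe was designed to AK023404 and maps to the opposite strand (chr15:57202412-57202471, minus strand, hg18). It was dim, well above background on 1 pre-control and 2 pre-miR-27a arrays. Its signals were 4.78, 4.79 and 5.19 in pre-control and 5.42, 5.01 and 4.59 in pre-miR-27a cells. They crossed between the pairs (0.64, 0.23 and −0.61), and the difference was 0.09 (standard error 0.24, adjusted p = 0.870).

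WEE1 and PKMYT1 encode the kinases that keep CDC2 inactive. WEE1 (NM_003390, chr11:9564856-9564915, plus strand, hg18) had a difference near 0 under each scaling tried. Its signals were 11.41, 10.95 and 10.93 in pre-control and 11.34, 11.16 and 10.71 in pre-miR-27a cells, with replicate 1 the highest and replicate 3 the lowest of both groups. The difference was −0.03 with a standard error of 0.22 (95% interval −0.57 to 0.50, adjusted p = 0.951), and within the pairs it was −0.08, 0.21 and −0.22. Its sign turned when 1 array was left out, to 0.13 without pre-control replicate 1 and 0.15 without pre-miR-27a replicate 3.

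PKMYT1, the membrane-bound relative of WEE1, had lower means in pre-miR-27a cells by both probes. The brighter probe (NM_182687, chr16:2962805-2962864, minus strand, hg18) gave 12.66, 12.82 and 12.27 in pre-control and 12.39, 12.55 and 12.25 in pre-miR-27a cells. The difference was −0.19 with a standard error of 0.17 (95% interval −0.61 to 0.23, adjusted p = 0.547). The dimmer probe (NM_004203, chr16:2964637-2965358, minus strand, hg18) gave 9.19, 9.70 and 9.10 against 9.05, 9.27 and 8.85, a difference of −0.27 with a standard error of 0.20 (95% interval −0.76 to 0.22, adjusted p = 0.465). The groups overlapped for both probes, although every pair was lower, by −0.27, −0.27 and −0.03 for the brighter and −0.14, −0.43 and −0.25 for the dimmer probe. With normexp background correction, pair 3 of the brighter probe turned to 0.015. The replicate block gave adjusted p-values of 0.183 and 0.108.

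**Figure D3:**
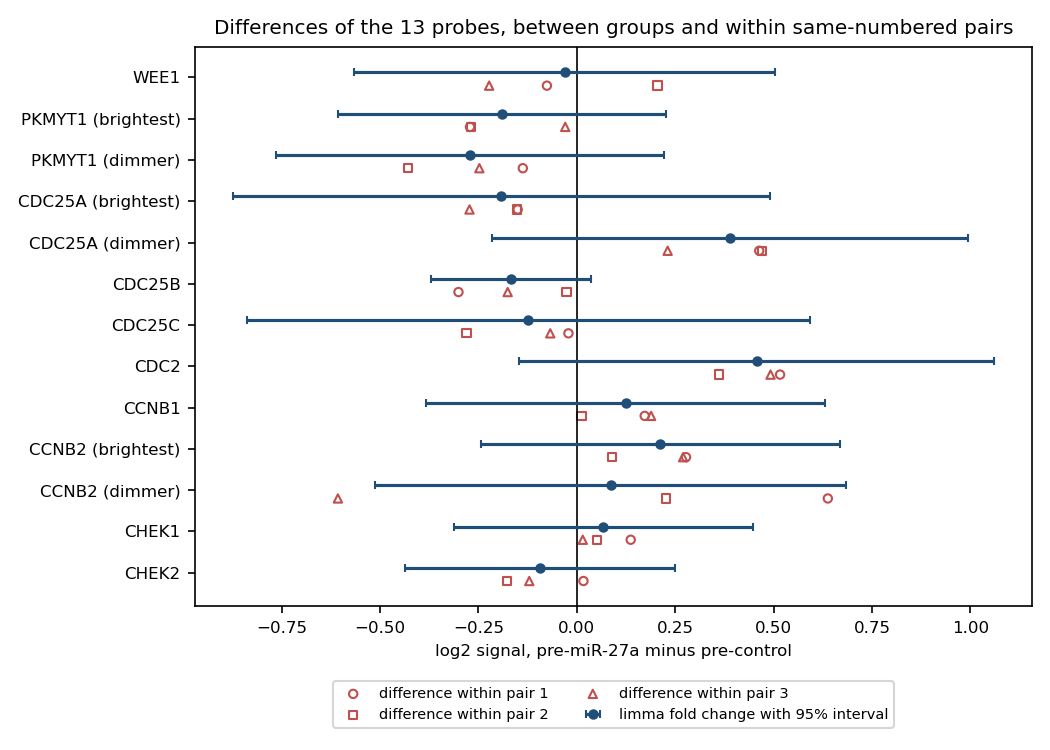
Difference in log2 signal, pre-miR-27a minus pre-control (horizontal axis), for each of the 13 probes: filled points and bars show the limma estimate with its 95% interval, and open symbols the differences within the 3 same-numbered pairs. Every interval includes 0. The 3 pairs lie on 1 side of 0 for 10 of the 13 probes, 5 above (25.6% of all probes) and 5 below (29.2%).

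The CDC25 phosphatases remove the inhibitory phosphates from CDC2, CDC25A acting at the start of S phase as well as at mitotic entry. CDC25B (NM_021873, chr20:3734178-3734237, plus strand, hg18) was the member with the least spread between replicates, with an SD of 0.07 in each group. Its signals were 14.42, 14.29 and 14.33 in pre-control and 14.12, 14.27 and 14.16 in pre-miR-27a cells. All 3 pre-miR-27a arrays lay below all 3 pre-control arrays, which held for 1 of the 13 probes and for 32.5% of all probes in either direction (14.8% higher and 17.8% lower). The difference was −0.17 with a standard error of 0.08 (95% interval −0.37 to 0.04, adjusted p = 0.280). The exact two-sided permutation test gave p = 0.1, the smallest that 3 against 3 arrays allow. Under 75th percentile scaling the difference was −0.28, still without overlap.

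CDC25C (NM_001790, chr5:137649139-137649198, minus strand, hg18) had signals of 11.05, 11.48 and 10.57 in pre-control and 11.03, 11.20 and 10.503 in pre-miR-27a cells. The SD of 0.45 in pre-control cells was the widest of the 13 probes, and the groups overlapped over most of their range. The difference was −0.12 with a standard error of 0.29 (95% interval −0.84 to 0.59, adjusted p = 0.841). CDC25C shared the low replicate 3 with CDC2 and the B cyclins, but the sign of its difference was the opposite of theirs. That sign turned to 0.10 without pre-control replicate 2 and to 0.08 without pre-miR-27a replicate 3.

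The pair of CDC25A probes (NM_001789) moved in opposite directions. The brighter one (chr3:48174128-48174187, minus strand, hg18) gave 11.96, 12.69 and 12.15 in pre-control and 11.81, 12.54 and 11.88 in pre-miR-27a cells, a difference of −0.19 (standard error 0.27, 95% interval −0.87 to 0.49, adjusted p = 0.726). The dimmer one (chr3:48175154-48175213, minus strand, hg18) gave 8.55, 9.16 and 8.75 against 9.01, 9.64 and 8.98, a difference of 0.39 (standard error 0.24, 95% interval −0.22 to 0.99, adjusted p = 0.394). Within pairs the brighter probe was lower by −0.15, −0.15 and −0.27 and the dimmer higher by 0.46, 0.47 and 0.23. Neither was called in limma, with or without the replicate block (adjusted p = 0.112 and 0.0577 with it).

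Subtracting one CDC25A probe from the other on each array removes what the probes share, such as the high signals of replicate 2 in both groups. The brighter minus the dimmer probe was 3.41, 3.53 and 3.40 in pre-control cells and 2.80, 2.90 and 2.90 in pre-miR-27a cells. The means were 3.45 ± 0.07 and 2.87 ± 0.06 (SD, n = 3), and the groups did not overlap. The change was −0.58 with a standard error of 0.07 (95% interval −0.75 to −0.41), with an adjusted p of 0.00864 in limma over the 6753 genes with at least 2 probes. It was −0.60 to −0.54 with any 1 array left out (adjusted p 0.0196 to 0.0452), −0.67 under 75th percentile scaling and −0.59 with normexp. This comparison was chosen after the values of both probes had been seen, and probe pairs of 16.7% of the 6753 genes passed the same test, while 42.4% did not overlap. The corresponding change was 0.08 for the pair of PKMYT1 probes (adjusted p = 0.654) and 0.13 for that of CCNB2 (adjusted p = 0.781). Whether the CDC25A probes read different transcripts was not tested, and which of them stands for the gene decides its sign: the mean of both gave a difference of 0.10.

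**Figure D4:**
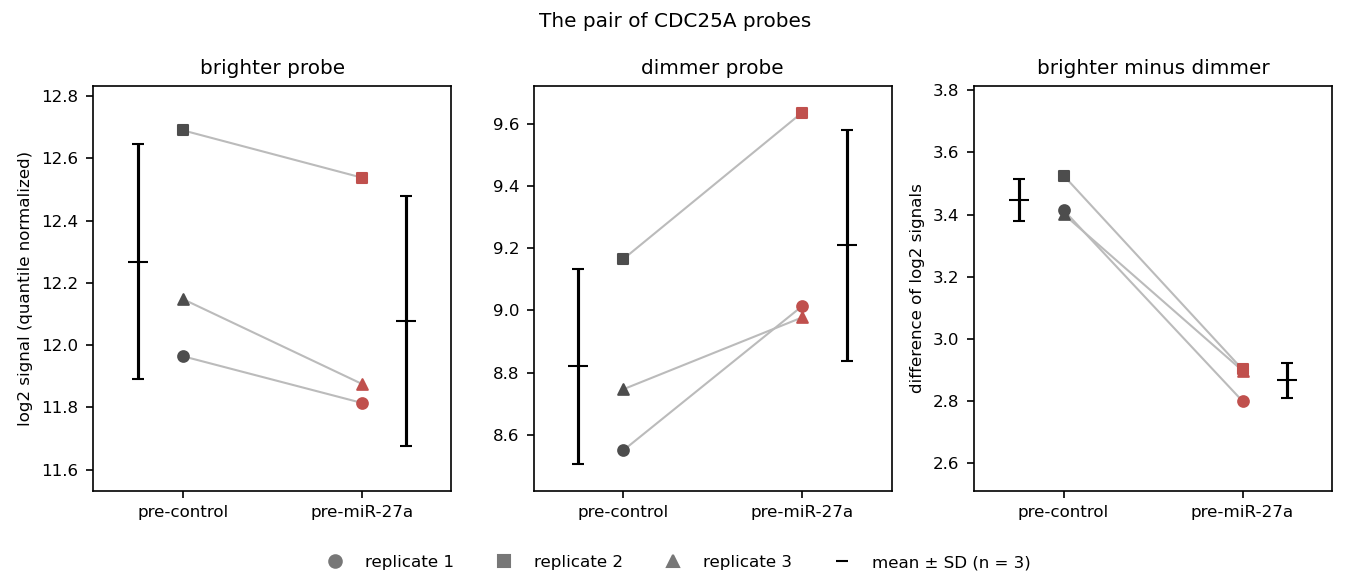
Log2 signal (quantile normalized) of the brighter and the dimmer CDC25A probe, and the difference between them on each array, in pre-control (grey) and pre-miR-27a (red) cells, with bars for the mean ± SD of 3 arrays. The groups overlap for each probe alone, and the difference falls from 3.40 to 3.53 in pre-control to 2.80 to 2.90 in pre-miR-27a cells.

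CHEK1 and CHEK2 encode the kinases that carry checkpoint signals from ATR and ATM to the CDC25 proteins. CHEK1 (NM_001274, chr11:125030701-125030760, plus strand, hg18) had signals of 11.49, 11.89 and 11.59 in pre-control and 11.62, 11.95 and 11.61 in pre-miR-27a cells. The difference was 0.07 with a standard error of 0.15 (95% interval −0.31 to 0.45, adjusted p = 0.833). CHEK2 (NM_001005735, chr22:27415145-27420020, minus strand, hg18) had 10.89, 11.26 and 10.92 against 10.91, 11.08 and 10.80, a difference of −0.09 with a standard error of 0.14 (95% interval −0.44 to 0.25, adjusted p = 0.735). Replicate 2 was the highest of both groups for both genes. The intervals of both checkpoint kinases exclude a doubling or a halving, as do those of every other member but CDC2 (upper limit 1.06).

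Replicates varied within each group. The range of the 3 pre-control arrays exceeded the difference between the group means for 12 of the 13 probes, and for 67.3% of all probes. A range of single arrays and a difference of means are unlike measures, so this does not weigh the replicates against the treatment. By the brightest probes, replicate 3 was the lowest of both groups for 6 of the 10 genes (WEE1, PKMYT1, CDC25C, CDC2, CCNB1 and CCNB2), against 20% of all probes. Replicate 2 was the highest of both groups for 6 genes (PKMYT1, CDC25A, CDC25C, CDC2, CHEK1 and CHEK2), against 23.6% of all probes. The whole order was the same in both groups for 6 genes, against 39.5% of all probes. CDC25B had another order in each group.

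The start regions of CDC2, CCNB1, CCNB2 and CDC25C are shown because they hold both sequence motifs marked below. The order of the replicates played no part in that choice. They come from the RefSeq windows of 250 bases before to 50 after each start (GRCh38.p14), and 8 of the 10 genes were matched, WEE1 and PKMYT1 not. Capitals mark TTTGAA or TTTAAA, the letters of the cell cycle genes homology region (CHR), and CCAAT, the letters bound by NF-Y, both searched on both strands. TTTGAA reads TTCAAA and CCAAT reads ATTGG on the other strand, and no marked motif overlaps another.
CDC2 (chr10:60778377-60778512, plus strand): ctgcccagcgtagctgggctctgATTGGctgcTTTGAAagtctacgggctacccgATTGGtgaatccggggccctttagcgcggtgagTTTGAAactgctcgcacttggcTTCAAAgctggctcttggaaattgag
CCNB1 (chr5:69167010-69167145, plus strand): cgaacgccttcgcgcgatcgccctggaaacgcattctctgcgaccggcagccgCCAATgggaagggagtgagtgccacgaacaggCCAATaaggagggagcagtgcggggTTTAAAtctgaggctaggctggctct
CCNB2 (chr15:59105007-59105142, plus strand): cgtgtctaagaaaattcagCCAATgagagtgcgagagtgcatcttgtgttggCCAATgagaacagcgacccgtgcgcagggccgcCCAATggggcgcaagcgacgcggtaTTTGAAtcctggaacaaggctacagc
CDC25C (chr5:138331828-138331944, minus strand): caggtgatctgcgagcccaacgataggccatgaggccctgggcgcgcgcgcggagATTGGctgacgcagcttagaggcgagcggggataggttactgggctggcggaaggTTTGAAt

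Of all 35116 windows, 24% hold TTTGAA or TTTAAA, 34.6% hold CCAAT and 9.27% hold both, and 11.2% of genes have a window with both. The stretches shown were chosen for holding both motifs, so their number is not set against these shares. Of the 4 windows of CDC25C, 2 hold neither motif. In the windows of CDC25A, CHEK1 and CHEK2 only CCAAT was found, and of the 4 windows of CDC25B, 1 holds TTTGAA or TTTAAA, without CCAAT. Where a gene has several starts, the one shown has the homology letters within 50 bases of the start and the most CCAAT matches. A match gives letters, not a bound site, and no binding was measured here.

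Around the switch, 53 of 54 listed genes of the pathway were measured, each by its brightest probe. Of them 1 rose and 0 fell at an adjusted p of 0.05 in limma, where 3.95% of all probes rose and 3.88% fell. TOPBP1, which activates the kinase ATR upstream of CHEK1, was the gene that rose. Its signals were 9.99, 10.14 and 9.89 in pre-control and 10.59, 10.88 and 10.4996 in pre-miR-27a cells, so the groups did not overlap. The difference was 0.65 with a standard error of 0.13 (95% interval 0.32 to 0.98), 1.57-fold, with an adjusted p of 0.0435. With any 1 array left out it was 0.54 to 0.73 (adjusted p 0.0930 to 0.124), but in 5 of those 6 fits 0 probes of the whole array were called. In the other, without pre-control replicate 1, it was 0.64 and not called (adjusted p = 0.103). Over the 53 genes the median difference was 0.08, against −0.02 over all probes. By sign 34 genes were higher and 19 lower, where 46.4% of all probes were higher. The list holds the brightest probe of each gene, unlike the share over all probes. Its median and signs were taken after quantile normalization only.

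The other 3 widest differences of the list were those of CLSPN, LIN54 and CKS2. CLSPN, the adaptor through which ATR activates CHEK1, had 6.76, 7.61 and 6.44 in pre-control and 7.68, 8.31 and 7.53 in pre-miR-27a cells, a difference of 0.90 (standard error 0.36, adjusted p = 0.198). Its groups overlapped at 1 pre-control array. LIN54, the DNA-binding subunit of the DREAM and MuvB complexes, had 4.85, 5.29 and 4.90 against 5.77, 6.08 and 5.39, a difference of 0.74 (standard error 0.21, adjusted p = 0.102), and was well above background on 2 of the 3 pre-control arrays. CKS2, a small subunit of CDC2 complexes, had 14.23, 14.17 and 13.79 against 14.73, 14.63 and 14.33, a difference of 0.50 (standard error 0.17, adjusted p = 0.137), with no overlap. CKS2 repeated the low replicate 3 of CDC2 and the cyclins in both groups. With the replicate block, 7 of the 53 genes were called, where 14.9% of all probes were. These were higher for CLSPN, LIN54, TOPBP1, CKS2 and GTSE1 and lower for CDK2 and FZR1. FZR1 is a subunit that directs the anaphase-promoting complex. It had 4 probes, and those other than the brightest ran from −0.23 to 0.10, so the gene had no single direction. With the block and 75th percentile scaling together, 4 of the 53 were called higher and 0 lower. Of all 36469 probes, 2056 were called higher and 2824 lower in that fit.

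By role, the 14 activators (PLK1, the Aurora kinases, cyclin A2, FOXM1 and others) were 7 higher and 7 lower by sign, with a median of 0.05. The 6 genes of the Greatwall and PP2A arm, in which PP2A removes phosphate from CDC2 substrates while Greatwall (MASTL), ENSA and ARPP19 inhibit PP2A, ran from −0.31 (PPP2R1A) to 0.18, none called. All 3 subunits of the CDK-activating kinase lay between 0.04 and 0.10. The 10 measured checkpoint sensors and mediators ran from −0.15 to 0.90 by their brightest probes and held TOPBP1. Dimmer probes of ATM ran from −1.02 to 0.43, none called. The 4 genes of the p53 arm lay between −0.08 and 0.08. The 7 genes of 14-3-3 proteins, which hold phosphorylated CDC25 in the cytoplasm, lay between −0.15 and 0.38. The highest of them, SFN, was dim, well above background on 1 pre-control array, and its pairs were 1.09, 0.65 and −0.61. The next, YWHAQ, was at 0.16. The 9 genes of protein destruction lay between −0.41 (FZR1, brightest probe) and 0.28. No other group held a called gene.

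**Figure D5:**
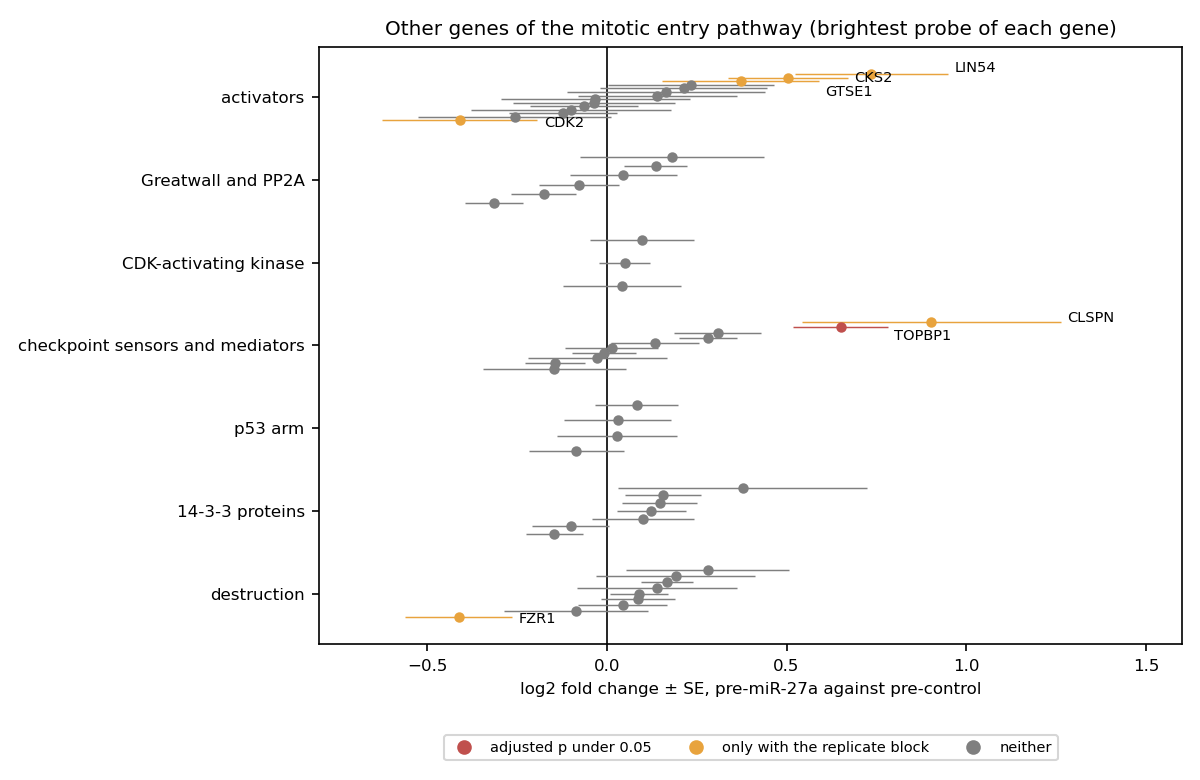
Log2 fold change ± standard error (horizontal axis, pre-miR-27a against pre-control, limma, 3 arrays per group) of 53 other genes of the mitotic entry pathway in 7 roles, by the brightest probe of each. TOPBP1 (0.65) passed an adjusted p of 0.05, the 6 other named genes passed with the replicate block only, and the rest passed neither.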

How the data were processed

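Each of the 6 arrays, 3 per group, measured mRNA of RH36 cells. For every spot the authors deposited Feature Extraction 10.5.1.1 intensities, background-subtracted within the array and not normalized between arrays. They also deposited a table of log2 values for 33169 probes, all 13 member probes included, which differed from those computed here by a median of 0.0043 and at most 1.05. Which log2 scale and centring the table has was read from that match. No column of per-sample values was left unused (0).

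Control spots were left out, log2 intensities were quantile normalized, spots not found were set to missing, replicate spots were averaged, and a probe missing on more than 1 array was removed. Files were read with data.table (version 1.17.8). The groups were compared with limma 3.58.1 under R 4.3.3, and p-values were adjusted by Benjamini-Hochberg over the 36469 probes at 0.05. SAM was written out in its two-class unpaired form with 20 relabellings. The test was tried on simulated data first.

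The correlation over 31717 probes of deviations from the group means was 0.40, 0.46 and 0.41 between same-numbered arrays and −0.27 to −0.12 otherwise. Every same-numbered value was above 0.1, so the numbers, which the labels give, were taken to pair the arrays. Correlations between arrays were at least 0.984 and, within a group, at most 0.994, so no array was a copy of another. Precision is limited by having 3 arrays per group.

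The members and the pathway list were chosen with earlier results of these data known. All members and all their probes are named. Of the pathway list, the genes called and the 3 widest other differences are named, and those called with the replicate block were added after seeing the data. ATRIP of that list had no probe under its name. Positions of probes follow the files (hg18), for which no annotation was used here, so exons are not given. Alternatives were 75th percentile scaling, normexp (offset 50), no filter, a filter on probes well above background on at least 3 arrays, the flag for positive and significant signals, the authors' log2 table, a variance trend, outlier spots left out, the replicate block, each array left out, and SAM. The false discovery rate of 1.9%, the block combined with other settings, and the comparison of probe pairs were added after seeing the data.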

Additional observations from a re-analysis of the deposited data

How the results depend on the processing

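No member probe or gene was called under any alternative without the replicate block. In 5 of the 6 fits that left out 1 array, 0 probes of the whole array were called, so those fits do not bear on this. With the replicate block, 5421 of all probes were called in place of 2856, and 1 member probe (1 gene, CDC2, 0.46, adjusted p = 0.0371 in limma). The block with normexp called far more, 11036 of 36469 probes, and with them 12 of the 53 pathway genes. It called 4 of the 13 member probes, 2 higher and 2 lower. By brightest probes these were 2 genes, CDC2 at 0.43 (adjusted p = 0.00268 in limma) and CDC25A at −0.25 (adjusted p = 0.0300). The dimmer CDC25A probe went the other way, at 0.34 under normexp, so CDC25A had no single direction there. The block with 75th percentile scaling gave 4880 probes, 0 member probes and 4 pathway genes. The block without pair 1, 2 or 3 gave 0 probes each time, which leaves fewer samples.

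Over all probes, SAM called 1329 at 5% and 9 at 1.9%, and leaving out 1 array gave 0 to 1195, the highest without pre-control replicate 1. Scaling to the 75th percentile gave 1275 higher and 1981 lower calls in place of 1440 and 1416. In the pathway list, 1 gene was called, against 7 with the replicate block, 2 with a variance trend and robust estimation (PPP2R1A, −0.31, being added), and 0 with SAM, with any array left out and with the block and any pair left out.

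Leaving out 1 array gave −0.17 to 0.15 for WEE1 (0.13 without pre-control replicate 1), −0.043 to 0.19 for CHEK1 (−0.018 without pre-control replicate 1), −0.42 to 0.017 for CDC25A, −0.36 to 0.10 for CDC25C (0.08 without pre-miR-27a replicate 3), −0.17 to 0.025 for CHEK2 and −0.047 to 0.27 for CCNB1. The other members, by their brightest probes, kept their sign with a wide range: 0.28 to 0.65 for CDC2, −0.34 to −0.07 for PKMYT1, 0.06 to 0.34 for CCNB2 and −0.21 to −0.13 for CDC25B. The mean of both CDC25A probes was 0.10. With 3 arrays per group, the 95% intervals of the members reached from −0.87 (CDC25A) to 1.06 (CDC2).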
